A study of Mus musculus with 4 samples.

Results

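Islands of trimethylated histone H3 lysine 9 (H3K9me3) were described at the centromeric ends of mouse chromosomes 1 to 19. Members were the islands that start between 3 and 13 Mb of each autosome, where the low coordinates lie next to the centromere. There were 1395 members among 19989 islands of the day 0 list and 3688 among 47553 of the day 3 list. The caller forms an island by joining neighbouring enriched windows. The data are native chromatin immunoprecipitation sequencing (ChIP-seq) of CD8+ T cells from wild-type C57BL/6 mice, in which uncross-linked chromatin is cut with micrococcal nuclease. Day 0 cells were naive, and day 3 cells had been in culture with anti-CD3, anti-CD28 and interleukin-2 (IL-2). Each day had 1 ChIP library, so there is no replicate check, no test between days was possible, and every difference between days is between these 2 libraries. The 2 input libraries were not analysed here. A list of islands does not allow the labelled cell type to be checked by its markers.

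H3K9me3 is written by methyltransferases of the SUV39H and SETDB1 type and read by HP1 proteins, and it marks compact, repressed chromatin. Mouse autosomes are telocentric. Their centromeres carry long arrays of minor and major satellite repeats, and the major satellite of the pericentromere is the classic site of SUV39H-dependent H3K9me3. These arrays are not in the reference assembly, where each autosome opens with a placeholder, taken here to end at 3 Mb. Whether unplaced sequence continues past 3 Mb on single autosomes was not checked. The members therefore lie in the first placed sequence beside the arrays and not in the arrays themselves. No island started before 3 Mb in either list.

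The first sequences shown are those of RefSeq gene starts (assembly GRCm38.p6) in the windows whose surroundings lay inside an island, because they show what kind of sequence near a gene the islands covered there. In each, the 250 bases before the start are given on the strand of the gene, 5′ to 3′, with CG dinucleotides (CpG) in capitals. The first 4 are those of protein-coding genes that lay wholly inside an island on both days. Morc2a encodes an ATPase that acts with the HUSH complex in H3K9me3-dependent silencing (chr11:3658422-3658671, plus strand). Casd1 encodes a sialic acid O-acetyltransferase (chr6:4623661-4623910, plus strand). Sun3 encodes a nuclear envelope protein of sperm cells (chr11:9039592-9039841, minus strand). Vip encodes the neuropeptide vasoactive intestinal peptide (chr10:5638968-5639217, plus strand). Mtr, which encodes methionine synthase, lay inside an island on day 0 only and has the most CpG of the promoters covered on either day (chr13:12258114-12258363, minus strand). Il7r, the interleukin-7 receptor alpha chain gene, lay inside one on day 3 only (chr15:9529877-9530126, minus strand).
Morc2a: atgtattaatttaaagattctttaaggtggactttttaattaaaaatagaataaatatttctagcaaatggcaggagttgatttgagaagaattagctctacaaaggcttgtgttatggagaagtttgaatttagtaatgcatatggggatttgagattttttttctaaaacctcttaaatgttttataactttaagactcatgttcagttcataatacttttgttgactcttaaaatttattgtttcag
Casd1: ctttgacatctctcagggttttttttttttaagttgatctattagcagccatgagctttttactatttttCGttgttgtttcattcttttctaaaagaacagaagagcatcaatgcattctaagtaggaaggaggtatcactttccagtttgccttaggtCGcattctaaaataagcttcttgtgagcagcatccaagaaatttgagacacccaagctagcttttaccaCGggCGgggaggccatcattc
Sun3: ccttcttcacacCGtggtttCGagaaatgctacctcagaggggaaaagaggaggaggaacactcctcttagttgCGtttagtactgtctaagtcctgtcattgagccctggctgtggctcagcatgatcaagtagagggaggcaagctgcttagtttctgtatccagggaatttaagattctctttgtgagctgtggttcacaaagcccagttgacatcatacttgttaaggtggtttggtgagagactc
Vip: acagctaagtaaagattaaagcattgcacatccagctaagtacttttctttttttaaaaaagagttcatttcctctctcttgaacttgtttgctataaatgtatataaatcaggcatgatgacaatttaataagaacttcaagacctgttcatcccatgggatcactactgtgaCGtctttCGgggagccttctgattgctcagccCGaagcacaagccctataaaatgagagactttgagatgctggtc
Mtr: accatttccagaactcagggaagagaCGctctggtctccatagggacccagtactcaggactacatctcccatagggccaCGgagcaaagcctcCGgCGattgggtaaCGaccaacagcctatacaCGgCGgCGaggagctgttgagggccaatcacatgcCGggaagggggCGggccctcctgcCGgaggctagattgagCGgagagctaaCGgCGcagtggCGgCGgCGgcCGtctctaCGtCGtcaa
Il7r: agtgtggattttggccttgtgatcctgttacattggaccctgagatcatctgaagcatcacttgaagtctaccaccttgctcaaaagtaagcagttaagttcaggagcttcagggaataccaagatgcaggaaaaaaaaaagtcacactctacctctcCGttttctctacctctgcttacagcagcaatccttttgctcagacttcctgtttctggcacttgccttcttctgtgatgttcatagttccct

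These stretches held 0 CpG in Morc2a, 4 in Casd1, 3 in Sun3, 3 in Vip and 1 in Il7r, against 20 in Mtr. The starts of Vip, Il7r and Mtr stood 25, 65 and 86 bp inside the gene body. Those of Morc2a, Casd1 and Sun3 are internal starts, 9.48, 23 and 9.4 kb inside it. The start in Morc2a was covered by an island with 30.6 reads per kb on day 0 (214 reads in 7000 bp) and 57.8 on day 3 (439 reads in 7600 bp).

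Promoters were taken as the 300 bases from 250 before to 50 after each RefSeq start. Of 2110 promoters in the windows, 36 lay wholly inside an island on day 0, or 1.71% (95% Wilson interval 1.23 to 2.35). On day 3 there were 57, or 2.70% (2.09 to 3.48). On all autosomes the shares were 2.1% and 2.56%, so both were near the background. The 36 promoters inside day 0 islands had a median of 1.5 CpG (quartiles 0 and 5) and the 57 inside day 3 islands a median of 2 (quartiles 1 and 5), while promoters of the windows outside islands had a median of 7 on each day. The same pattern held in the rest of the chromosomes, with medians of 3 and 2 CpG inside islands and 7 and 8 outside. Only 7 promoters of the windows were inside islands on both days, the 4 printed above and 3 of lncRNA genes. A minority were rich in CpG. Of those inside islands, 2 of 36 (5.56%) on day 0 and 12 of 57 (21.1%) on day 3 held at least 10. Among them were Mtr on day 0 and the splicing-related gene Cwf19l2, with 19, on day 3. For the other promoters of the windows the shares were 43.7% and 43.6%, and for promoters inside islands of the rest 10.3% and 12.5%. The day 3 count includes several starts of the neighbouring genes Cyb561a3 and Tmem138 on chromosome 19. Of 50 microRNA hairpins in the windows, none lay in a day 0 island and 1 (2%) in a day 3 island, against 21 (2.42%) and 52 (5.98%) of 869 in the rest. This was Mir1898 on chromosome 15 (hairpin 12171492 to 12171574, plus strand), in an island of 164 reads (12170001 to 12172800). Its mature form is given with the seed, bases 2 to 8, in capitals.
mmu-miR-1898: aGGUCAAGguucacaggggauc

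Across the 19 windows, islands did not cover a larger share of the sequence than in the rest of the same chromosomes. Members covered 6.90 Mb or 3.63% of the 190 Mb of windows on day 0, against 4.23% of the remaining 2213 Mb, a ratio of 0.859. On day 3 they covered 15.1 Mb or 7.93%, against 8.29%, a ratio of 0.957. The windows make up 7.91% of the autosomes and held 6.98% of autosomal islands on day 0 (Wilson interval 6.64 to 7.34) and 7.76% on day 3 (7.52 to 8.001). Intervals here cover counting error only. The day 3 ratio was near 1 and depended on where the windows end. With windows of 20 Mb its log2 value was 0.078 instead of -0.06, with windows of 5 Mb it was -0.20, and without chromosome 16 it was 0.014.

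Chromosomes differed among themselves far more than the windows differed from the rest. On day 0 the covered share of a window ran from 0.758% on chromosome 7 to 6.33% on chromosomes 4 and 6, with a median of 3.57%. The rest of the chromosomes ran only from 2.95% to 5.38%. On day 3 the windows ran from 1.86% on chromosome 7 to 13.6% on chromosome 2 (median 8.46%), and the rest from 5.60% to 11.1%. Windows are shorter than the rest of a chromosome, so other windows of the same length were set beside them. The 211 other complete windows ran from 0.488% to 8.63% on day 0 and from 0.386% to 21.4% on day 3, and every proximal window lay within those limits.

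The proximal window was covered more than the rest of its chromosome on 7 of 19 chromosomes on day 0 (2, 4, 5, 6, 11, 15 and 18) and on 9 on day 3 (1, 2, 4, 5, 6, 9, 11, 13 and 15). Chromosomes 2, 4, 5, 6, 11 and 15 were above the rest on both days. Chromosome 4 stood highest relative to its rest on both, with 6.33% against 3.79% on day 0 and 11.9% against 7.11% on day 3, a ratio of 1.67 each time. It ranked second of the 15 windows of its chromosome on both days. Chromosome 6 followed on day 0 with 6.33% against 4.62%, and had 11.95% against 8.17% on day 3. At the other end, chromosome 3 had 1.88% against 5.07% on day 0, the lowest of its 15 windows, but 8.66% against 10.3% on day 3. Chromosome 7 had 0.758% against 3.48% on day 0 and 1.86% against 5.60% on day 3. Chromosome 14 had 1.69% against 3.81% and 3.78% against 8.42%, and was the lowest of 12 windows on both days. Chromosome 16 had 2.25% against 4.24% and 2.01% against 11.1%, the lowest of 9 windows on both days. Chromosome 19 had 2.97% against 4.59% and 4.35% against 7.78%, the lowest of its 5 windows on day 3. Windows over 1.5-fold above the rest numbered 1 on day 0 (chromosome 4) and 2 on day 3 (chromosome 4, and chromosome 5 with 10.6% against 6.46%). Windows over 1.5-fold below the rest numbered 6 on day 0 and 5 on day 3. Chromosome 8 was among them on day 0 only (1.77% against 2.95%) and chromosome 17 on day 3 only (3.62% against 6.98%). No proximal window was the highest of its chromosome on either day.

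**Figure D1:**
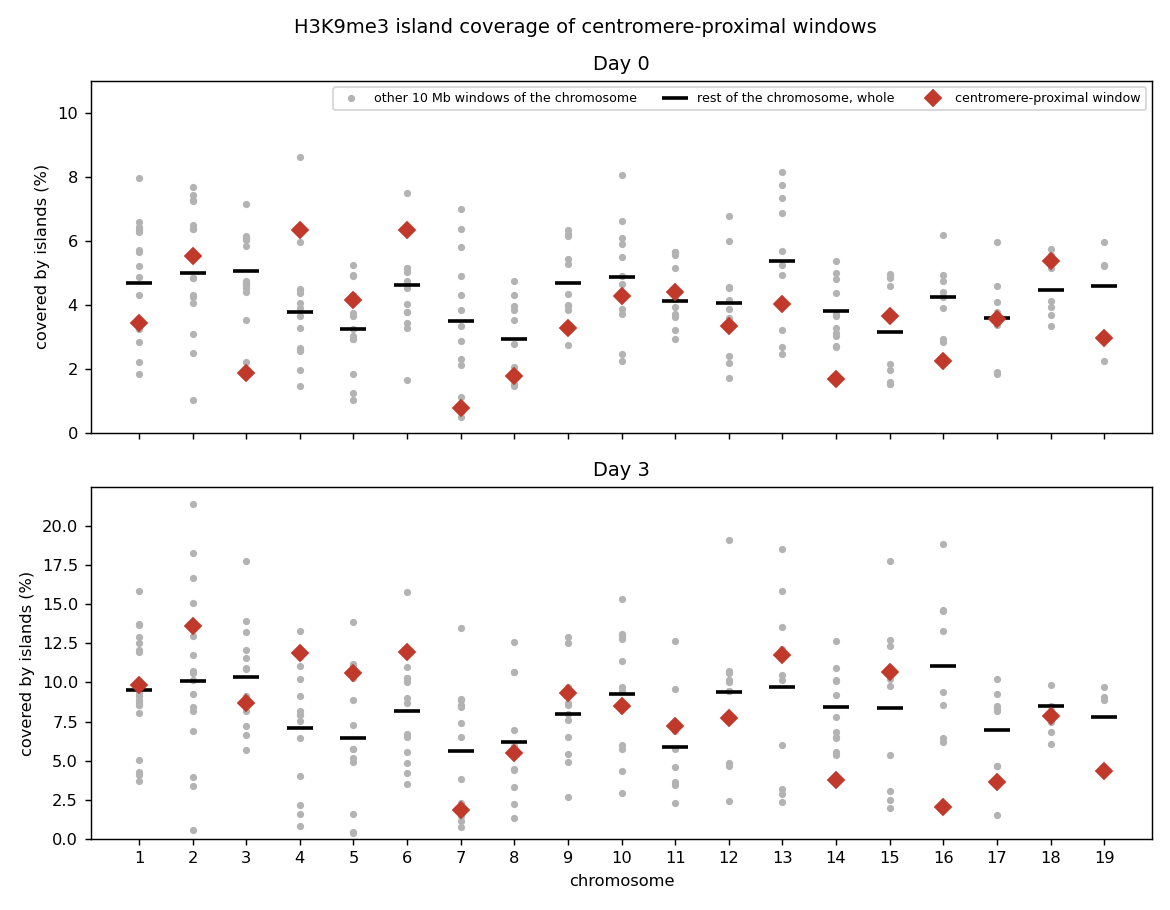
Share of sequence covered by islands (y axis, %) for each autosome (x axis) on day 0 and day 3. Diamonds are the centromere-proximal windows, grey points the other complete 10 Mb windows and bars the whole rest of the chromosome. The diamonds of chromosomes 2, 4, 5, 6, 11 and 15 stand above the bar on both days. Those of chromosomes 7, 14, 16 and 19 stand well below it on both days. Those of chromosomes 3 and 8 do so on day 0 and that of chromosome 17 on day 3.

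Coverage was lowest, on day 3, in the megabase next to the placeholder. In that megabase the mean over the 19 chromosomes was 3.26% on day 0 and 4.93% on day 3. It was 4.24% and 7.46% in the next megabase. Between 10 and 11 Mb of the chromosome it reached 4.20% and 10.5%, the highest of the 10 megabases on day 3. On day 0 there was no such order: the first megabase lay between the lowest, 3.00% at 7 to 8 Mb, and the highest, 4.24% at 4 to 5 Mb. At the border of the windows nothing stepped. The last megabase inside (12 to 13 Mb) had 3.50% and 8.13%, with 137 and 381 islands, and the first outside (13 to 14 Mb) had 3.70% and 8.17%, with 142 and 379 islands. Without the first megabase the day 3 log2 ratio of the windows to the rest was -0.0048, against -0.06 with it. Sequence where reads cannot be placed was not removed from these shares, and chromosome 14 had no island in its first megabase on either day.

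The island nearest to the placeholder lay a median of 323.2 kb from it on day 0 (range 89.2 to 4820.2 kb over 19 chromosomes) and 232.4 kb on day 3 (32 to 4716.8 kb). It was within 500 kb on 14 chromosomes on day 0 and 18 on day 3. On day 3 the outermost island was that of chromosome 1 (3032001 to 3034200, 131 reads). It lay outside annotated genes, 165.5 kb from Xkr4. On chromosomes 4 and 11 the nearest island began at the same base on both days. The one on chromosome 11 (3100201 to 3102600 on day 0) held 244 reads or 101.7 per kb (exact 95% Poisson interval 214 to 277 reads). Only 1 island of the whole day 0 list was denser. On day 3 it held 305 reads in 2200 bp, or 138.6 per kb (interval 272 to 341), and again only 1 island of the list was denser. It lay in no annotated gene, 29.25 kb from Sfi1, a gene of a centrosomal protein. The island on chromosome 4 (3089201 to 3091200 on both days) held 130 reads on day 0 and 123 on day 3. Its 65 reads per kb were 1.91 times the list median on day 0, and its 61.5 were 1.16 times the median on day 3. The part of reads that match several repeats in these counts was not tested.

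Dense islands were rare in the windows and in the rest. Islands above 2 times the median density of their list numbered 1 of 1395 members (0.072%) on day 0 and 3 of 3688 (0.081%) on day 3. In the rest they were 6 of 18589 (0.032%) and 12 of 43857 (0.027%). The shares were higher in the windows, but 1 and 3 islands are too few to compare. The densest member on day 3 was a single 200 bp window on chromosome 3 (8246201 to 8246400) with 47 reads (interval 34.5 to 62.5), and no island of the list was denser. It overlapped no day 0 island. Next after chromosome 11 came a 600 bp island in Cplane1 on chromosome 15 (8242401 to 8243000) with 66 reads, or 110 per kb. Cplane1 encodes a protein needed to build cilia.

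Length and density of the members were close to those of islands elsewhere. The median length was 4600 bp on day 0 (quartiles 3800 and 5800) against 4800 bp in the rest. With island borders on a 200 bp grid this difference is 1 step, and it was 0 when the window was 5 or 20 Mb wide. On day 3 both medians were 3600 bp. The median density was 34 reads per kb on day 0 against 34.1, and 52.9 on day 3 in both. Chromosome medians of the members ran from 32.1 to 35 reads per kb on day 0 and from 50.8 to 54.3 on day 3, and exceeded the rest of the chromosome on 10 of 19 on each day. Islands of 10 kb or more made up 1.72% of members on day 0 and 1.90% on day 3, against 2.02% and 2.46% in the rest. On day 0 the longest member was an 18800 bp island in Stxbp5, a regulator of vesicle fusion, on chromosome 10 (584 reads, 31.1 per kb). On day 3 it was a 19000 bp island between genes on chromosome 2 (9100601 to 9119600, 1061 reads, 55.8 per kb).

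Read counts are not scaled for depth. Members held 233209 reads on day 0 and 789342 on day 3, which is 6.86% and 7.58% of reads in autosomal islands. Of the day 0 members, 707 (50.7%) were less dense than the least dense autosomal island of day 3 (34.1 reads per kb), as were 50.4% of islands in the rest. Because the counts are not scaled, this comparison of densities between days cannot decide whether a member listed on day 0 only lost the mark. In overlapping pairs of the windows the day 3 island had a median of 1.58 times the density of the day 0 island. Day 0 members that overlapped a day 3 island had a median of 33.96 reads per kb, and the others 34.05. Loss of the mark was not tested.

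The windows and the rest shared about as many islands between days. A day 3 island overlapped 486 of the 1395 day 0 members, or 34.8% (Wilson interval 32.4 to 37.4), where the share on all autosomes was 33.6%. In the other direction 517 of 3688 day 3 members, or 14.02% (12.9 to 15.2), overlapped a day 0 island, against 14.9% on all autosomes. On chromosomes 16 and 17 the day 0 share was lower, at 7 of 47 members (14.9%) and 9 of 69 (13.0%). It was highest on chromosome 3, at 19 of 42 (45.2%). In 528 overlapping pairs of the windows, the day 3 island had a median of 1.58 times the density of the day 0 island (quartiles 1.42 and 1.75), against 1.57 in the rest.

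Members covered 2.18 times as many bases on day 3 as on day 0, and islands of the rest 1.96 times as many. The ratio of the window was above that of the rest on 15 of 19 chromosomes. On chromosomes 4, 12 and 14 it was above by little (1.878 against 1.876, 2.313 against 2.308 and 2.24 against 2.21). It was below on chromosomes 16, 17, 18 and 19. Chromosome 3 had the largest, where 42 islands spanned 188 kb on day 0 and 221 spanned 866 kb on day 3. This is 4.60 times as much, against 2.04 times in the rest of that chromosome, and all 10 megabases of the window were covered more on day 3. With all islands counted, the window of chromosome 16 alone was covered less on day 3. There 47 islands spanned 225 kb on day 0 and 52 spanned 201 kb on day 3. Its ratio was 0.891, while the rest of chromosome 16 had 2.61. The window of chromosome 17 had 357 kb and 362 kb, a ratio of 1.02 against 1.95 in the rest, and 7 of its 10 megabases were covered more on day 0.

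These ratios depended on which islands were counted, but the order of chromosomes 16 and 17 did not. The day 3 list was first shortened to its islands with the most reads, as many as day 0 has (equal list lengths). The ratio then was 0.437 for the window of chromosome 16 and 1.55 for its rest. For chromosome 17 these were 0.618 and 1.13, and for all windows together 1.28. With only islands of at least the median density of their list (the density limit) they were 0.621 and 2.70 for chromosome 16, and 0.907 and 1.95 for chromosome 17. Windows covered less on day 3 numbered 5 with equal list lengths (11, 16, 17, 18 and 19) and 2 with the density limit (16 and 17), in place of chromosome 16 alone. For chromosome 3 the ratio was 2.44 and 2.99 under these selections. The windows of chromosomes 16, 17, 18 and 19 stayed below the rest under both, while the count of chromosomes above the rest was 12 and 14 in place of 15.

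**Figure D2:**
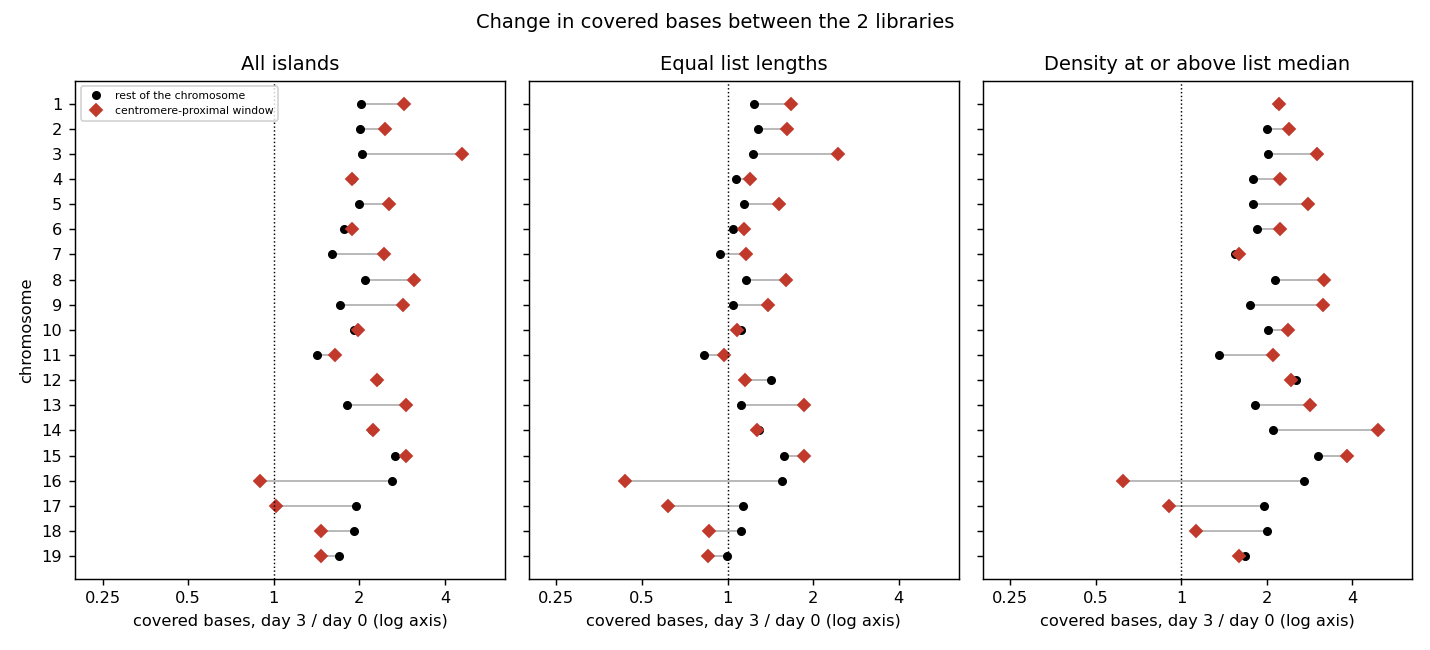
Covered bases on day 3 divided by those on day 0 (x axis, log scale) for the proximal window (diamonds) and the rest (circles) of each autosome (y axis). Panels show all islands, day 3 shortened to the length of the day 0 list, and islands of at least the median density of their list. The diamonds of chromosomes 16 and 17 lie far to the left of the circles in every panel.

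Among the 190 single megabases of the windows, 97 (51.1%) were covered at least 2-fold more on day 3 and 6 (3.16%) at least 2-fold more on day 0. Over all autosomal megabases the shares were 43.6% and 7.81%. The megabase with the highest coverage on day 3 was on chromosome 4 from 7000001 (7.84% on day 0 and 28.8% on day 3). It holds no protein-coding gene with an established name and begins just past Tox, a transcription factor gene of T cell exhaustion. Next came chromosome 13 from 5000001 (6.04% and 26.0%), where Klf6, a Krüppel-like transcription factor gene, is the only such gene. Chromosome 2 followed with its megabases from 9000001 (5.60% and 23.9%), which holds Gata3 and Taf3, and from 8000001 (4.60% and 23.0%), which holds none. Neither Gata3, the transcription factor gene of T helper 2 cells, nor Klf6 had an island itself. The nearest day 3 island was 75.4 kb from Gata3 and 1.41 kb from Klf6. On day 0 the highest megabase was on chromosome 2 from 6000001 (12.04%, and 17.2% on day 3), which holds part of Celf2. The largest excess on day 0 was 3.14 percentage points on chromosome 2 from 4000001, with Frmd4a (8.52% and 5.38%), followed by chromosome 17 from 5000001, with Arid1b (5.56% and 2.54%).

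**Figure D3:**
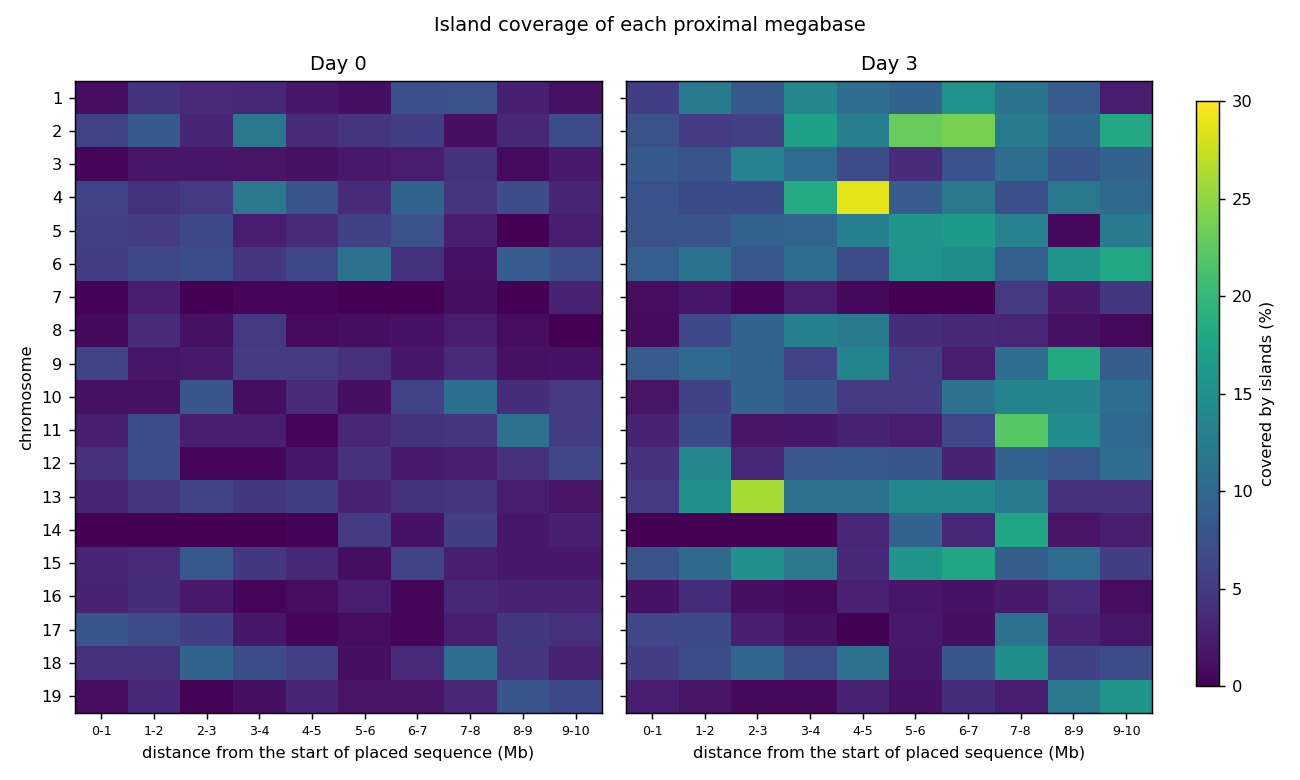
Share of each megabase covered by islands (colour scale, %) by autosome (y axis) and distance from 3 Mb (x axis, Mb), on day 0 and day 3. Chromosome 14 has no island in its first 4 megabases on either day, chromosome 16 stays dark on both days, and chromosomes 2, 4 and 13 hold the brightest fields on day 3, up to 28.8%.

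Of the 190 megabases 6 (3.16%) had no island on either day, against 1.32% in the rest. They lay on chromosomes 7 and 14. On chromosome 14 no island was listed on either day from 3 Mb to 7716800, a length of 4.72 Mb. RefSeq places 76 protein-coding genes there, of which 75 have only predicted symbols, and 50 pseudogenes. Without this stretch the covered share of the chromosome 14 window was 3.20% on day 0 and 7.16% on day 3, closer to the rest (3.81% and 8.42%). On chromosome 7 the stretch free of islands on both days ran from 7177601 to 10151200. It holds 23 vomeronasal receptor 2 genes (pheromone receptors in dense arrays of near copies) and 51 pseudogenes. Without it the window was covered over 1.08% and 2.64%, still below the rest (3.48% and 5.60%). Whether reads could be placed uniquely in these stretches was not tested.

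Gene number and covered share ran in opposite directions across windows on day 3. Chromosome 19 had 324 protein-coding genes in its window, chromosome 7 had 181 and chromosome 11 had 99, against 25 on chromosome 3. Across the 19 windows the Spearman rank correlation between gene number and covered share was -0.67 on day 3 and -0.30 on day 0. Across the 211 other 10 Mb windows it was -0.54 and -0.099. The gene numbers include 76 in the chromosome 14 stretch free of islands and 27 in that of chromosome 7. Whether reads could be placed there was not tested. Windows of a day share 1 library, and the values are descriptions. Bodies of protein-coding genes make up 38.3% of the windows and held 49.8% of the member bases of day 0 and 44.1% of those of day 3. In the rest these shares were 50.3% and 47.3%, of 41.1%.

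The windows overlap 1421 protein-coding genes. An island covered at least 1 bp of 328 of them (23.1%) on day 0 and 446 (31.4%) on day 3. Over all 20661 autosomal protein-coding genes the shares were 24% and 28.7%. With equal list lengths the day 3 count was 298 (21.0%), below that of day 0, where all autosomal genes had 18.9%. With the density limit the counts were 207 (14.6%) and 325 (22.9%), against 15.3% and 20.2%. With all islands counted, 248 of the 1421 genes of the windows had islands on both days, 80 on day 0 only and 198 on day 3 only. Of the 20661 autosomal genes, 3480 had islands on both days, 1476 on day 0 only and 2449 on day 3 only.

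The genes with the most covered bases were long. Fhit, a diadenosine triphosphatase gene that spans a common fragile site, led on day 3 with 209 kb of its 1612 kb body, against 74.8 kb on day 0 (chromosome 14, 9550092 to 11162061). Celf2, which encodes an RNA-binding splicing regulator of T cells, led on day 0 with 115 kb, and had 173 kb on day 3 (chromosome 2, 6539694 to 7396341). Sntg1, a syntrophin gene, had 15.6 and 117 kb, and Cntn5, a neuronal adhesion gene, 31.2 and 115 kb. Adarb2, an RNA deaminase family gene, had 22.6 and 95.4 kb. Zfp804b, a zinc finger gene, had 12 and 94 kb, Phf14, a PHD finger gene, 16.8 and 88.4 kb, and Chrm3, a muscarinic receptor gene, 20.5 and 88 kb. Nipbl, which encodes the cohesin loader, stood apart for its size. In a body of 175 kb (chromosome 15, 8289824 to 8465315) it had 2.6 kb in 1 island on day 0 against 92.8 kb in 19 on day 3, or 52.9% of the gene. Nipbl, Phf14 and Adarb2 kept an excess on day 3 of 74, 63.4 and 56.2 kb with equal list lengths, and of 48.4, 66.2 and 20.2 kb with the density limit. That of Fhit was 40.9 and 63.8 kb instead of 134 kb, of Sntg1 59.5 and 45.6 kb instead of 102 kb, of Cntn5 20.6 and 26.8 kb instead of 84 kb and of Zfp804b 47.6 and 30.4 kb instead of 82 kb. For Chrm3 it was 52.1 and 39.4 kb instead of 67.5 kb, and for Celf2 7.2 and 53 kb instead of 57.6 kb.

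Several genes were covered more on day 0. Frmd4a, a scaffold gene of cell polarity, had 55.6 kb on day 0 and 19.4 kb on day 3. Shisa9, an auxiliary subunit gene of glutamate receptors on chromosome 16, had 21.4 kb and none. On chromosome 17, Arid1b, a subunit gene of the BAF remodelling complex, had 24 and 2.8 kb, and Tiam2, a Rac exchange factor gene, 20.4 and 3.4 kb. Frmd4a, Shisa9 and Arid1b kept an excess on day 0 with the density limit, of 26.2, 4.8 and 1.8 kb, and Tiam2 did not, with none on day 0 and 3.4 kb on day 3. Others among the most covered on day 0 were Cdk14, a cyclin-dependent kinase gene (61.6 and 71.2 kb), Umad1 (44.6 and 39.2 kb), Ppp1r9a, which encodes the actin-binding protein neurabin (43 and 38.4 kb), Syne1, a nuclear envelope gene (41.8 and 68 kb), and Asph, a hydroxylase gene (41.6 and 27.2 kb). Cdk14 had less on day 3 under both selections (61.6 against 51.8 kb and 27.2 against 19.4 kb). The size of the differences in Syne1, Umad1, Ppp1r9a and Asph moved by over 1.5 times under at least 1 selection.

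**Figure D4:**
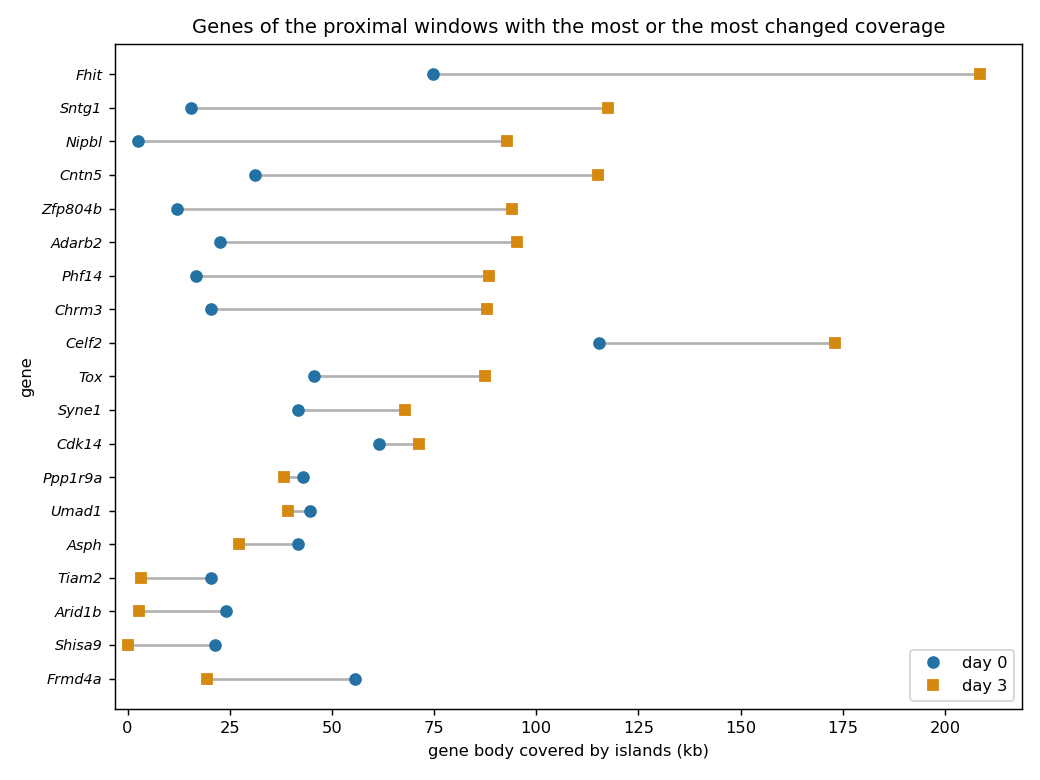
Gene body covered by islands (x axis, kb) on day 0 (circles) and day 3 (squares) for the genes of the windows with the most covered bases or the largest differences (y axis). Fhit, Sntg1 and Nipbl have the longest lines toward day 3, and Frmd4a, Shisa9 and Arid1b the longest toward day 0.

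On chromosome 3 the gene with the most covered bases over both days was Zfhx4, a homeobox transcription factor gene (7.8 kb on day 0 and 58.6 kb on day 3). On chromosome 6 it was Thsd7a (24.8 and 84.2 kb), on chromosome 7 Zfp329, a zinc finger gene (5.6 and 1.62 kb), and on chromosome 8 Myo16, a myosin gene (15.2 and 9.8 kb). On chromosome 11 it was Zpbp, a sperm acrosome gene (35.8 and 57 kb), and on chromosome 12 Ncoa1, a nuclear receptor coactivator gene (34.8 and 38 kb). On chromosome 16 it was Crebbp, a histone acetyltransferase gene (11.5 and 25.2 kb), on chromosome 18 Rock1, a kinase gene of the actin cytoskeleton (23 and 52.4 kb), and on chromosome 19 Ppp6r3, a phosphatase subunit gene (9.4 and 20.8 kb). Zfp329, Ncoa1 and Crebbp turned direction under a selection of islands. The differences of Zfhx4, Thsd7a, Myo16, Zpbp, Rock1 and Ppp6r3 kept their sign under both, but moved by over 1.5 times under at least 1. For Myo16, with more on day 0, a shorter day 3 list could not turn the sign.

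Of 50 T cell and immune genes in the windows, islands met 13 (26%) on day 0, 24 (48%) on day 3, 11 on both and 24 on neither. With equal list lengths the day 3 count was 16 (32%), and with the density limit the counts were 11 (22%) and 18 (36%). Over all autosomal genes the shares were 24% and 28.7%, then 18.9% on day 3 with equal list lengths, and 15.3% and 20.2% with the density limit. The median body of the list was 33.4 kb, against 17.5 kb over all autosomal genes, and a longer body can meet more islands. Mybl1, a Myb family gene, had the highest covered share on either day in the list, at 57.5% of the gene on day 0 and 53.3% on day 3. Rictor, the defining subunit gene of mTOR complex 2, had 20.4 and 32.6 kb. Rb1cc1, an autophagy initiation gene, had none and 25.4 kb. Pag1, which encodes a membrane adaptor that restrains Src kinases in T cells, had 8.4 and 34.6 kb. Prkcq, the protein kinase C gene of the T cell synapse, had none and 8.4 kb, and the cytokine gene Il7 none and 9 kb. Crem, a cAMP-responsive repressor gene, had 9.6 and 20 kb, and Zeb1, a transcription factor gene, 10.4 and 24.6 kb. Tox was covered over 14.9% and 28.6% of its body. Cdk6, the G1 kinase gene, had 18.4 and 6.4 kb. Ccr6 and Cd5, genes of a chemokine receptor and of a brake on T cell receptor signalling, each had 4.4 kb on day 0 and none on day 3.

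Several differences in this list depended on which islands were counted. Zeb1 had more on day 0 with equal list lengths (10.4 against 5.4 kb) and with the density limit (10.4 against 8 kb). Crem had 9.6 against 8.6 kb with the density limit. Prkcq, Stx11 and Ptprg had no island left under either selection. Il7, Il7r and Cd5 had none with the density limit, and Il2ra, Il15ra, Lair1, Osmr and Lifr none with equal list lengths. Ccr6 kept 4.4 kb against none with the density limit. Equal list lengths shorten only the day 3 list, so an excess on day 0 cannot turn there. Rb1cc1 kept none against 19.98 kb in lists of equal length, and against 5.4 kb under the density limit, and Pag1 8.4 against 27.4 kb and none against 13.4 kb. The difference was 19 kb for Tox and 4.2 kb for Rictor with equal list lengths, instead of 41.8 and 12.2 kb. That of Cdk6 was -1.6 kb with the density limit instead of -12 kb. Among the 24 without an island were Lyn, Dnmt3a, Socs1, Ciita, Rela, Fosl1, Cd6, Birc3, Ezr and Tagap. Rela, the NF-kappa B subunit gene, lay 513 kb from the nearest island on day 0 and 367 kb on day 3.

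Of 19 imprinted genes listed, 16 lay in the windows, and islands met 10 of them on day 0 (62.5%) and 8 on day 3 (50%). With equal list lengths the day 3 count was 4 (25%), and with the density limit the counts were 6 (37.5%) and 3 (18.8%). Their median body was 75.9 kb. The shares over all autosomal genes were 24% and 28.7%. On chromosome 6, in the domain of Peg10 and Sgce, neither of these 2 genes had an island on either day. Ppp1r9a beside them had 43 and 38.4 kb, and the calcitonin receptor gene Calcr 10.6 and 11.6 kb. On chromosome 7, Peg3 and Zim1 had none, and Usp29 had 4.8 kb on day 3 only. On chromosome 11, Grb10, a receptor-binding adaptor gene, had 16.2 and 22.2 kb, and its neighbour Cobl 26.4 and 29.4 kb. Ddc, which encodes an aromatic amino acid decarboxylase, had 3.5 kb on day 0 only. On chromosome 17, Igf2r, the receptor gene that clears insulin-like growth factor 2, had 3.4 kb on day 0 only. The difference of Grb10 was 1.4 kb with equal list lengths instead of 6 kb. The sign for Calcr turned with equal list lengths and that for Cobl under both selections. With the density limit Igf2r kept its difference and Ddc had no island left. Equal list lengths could not change these 2 genes, because neither had an island on day 3.

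Clustered gene families were counted next, beginning with those that had the fewest islands. None of 29 vomeronasal receptor 2 genes had one on either day, while islands met 7 of 93 members elsewhere on day 0 and 30 on day 3. Of these 29 genes, 23 lie in the chromosome 7 stretch free of islands, where the placement of reads was not tested. Over all autosomal protein-coding genes the shares were 24% on day 0 and 28.7% on day 3. Of 33 vomeronasal receptor 1 genes, islands met 1 on day 0 and none on day 3, against 4 and 8 of 197 elsewhere. None of 4 Nlrp genes had one, against 1 and 5 of 14 elsewhere. Of 40 olfactory receptor genes, islands met 2 (5%) on day 0 and 8 (20%) on day 3, against 5.47% and 15.7% of those elsewhere. Of 32 Zfp zinc finger genes, 6 (18.8%) and 12 (37.5%) had one, against 17.98% and 30.3% elsewhere. The chromosome 9 cluster of matrix metalloproteinase genes, which encode enzymes that cut extracellular matrix, holds 10 members in the window. Islands met Mmp20 and Mmp7 on day 0 and Mmp20, Mmp27 and Mmp8 on day 3, which is 20% and 30% against 23.1% and 7.69% of 13 members elsewhere. With equal list lengths the day 3 counts were 1 in this cluster and 3 among the olfactory receptor genes. Members of such clusters are neighbours, so they do not vary independently.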

How the data were processed

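H3K9me3 native ChIP-seq of CD8+ T cells was used, with 1 library on day 0 and 1 on day 3. Per the labels' protocols, reads were paired-end with a length of 150 bases. The submitters' processing notes name Bowtie2, SICER version 1.1 and build mm10. Not given in the sources used here are the threshold, the gap size, the handling of duplicates and repeated matches, and the use of the input. The deposited lists give each island's position and a whole number, read as a raw read count because it follows island length. It is not scaled for depth or input. The labels give the same approximate sequencing depth for every library, and no exact number.

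Positions were converted to 1-based mm10 coordinates. Members are islands by their start, and covered share is their summed length over 10 Mb. The rest runs from 13 Mb to the largest island or gene end. Density is reads per kb. Genes and sequences came from RefSeq tables of GRCm38.p6, which shares the coordinates of mm10. Genes count as having an island from 1 covered bp. Python 3.11.15, pandas 2.3.3 and scipy 1.17.1 were used. The interval code was tested on 10000 simulated intervals, with 0 mismatches. In the promoter table, 1794 of 1794 overlapping pairs on opposite strands were reverse complements.

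Named genes were the 10 most covered on each day, the 5 with the largest excess on each, the most covered of each chromosome, and members of the lists with an island, without predicted symbols. A gene that this rule names is not reported here. List members without an island, single promoters and family members were named after their values were seen. Members and lists were chosen with earlier results of these data known. Alternatives are given in the closing section. No test was run, since each day has 1 library.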

Additional observations from a re-analysis of the deposited data

How the results depend on the processing

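The log2 ratio of covered shares, windows to rest, was -0.22 on day 0, and -0.12 with 20 Mb windows. On day 3 it was -0.06, and -0.20 with 5 Mb windows, 0.078 with 20 Mb windows, -0.0048 without the first megabase and -0.12 as a median over chromosomes. Leaving out each chromosome in turn gave -0.29 to -0.16 and -0.12 to 0.014, the last without chromosome 16. Leaving out megabases without islands, an alternative chosen after seeing the data, gave -0.19 and -0.04. Chromosomes above the rest numbered 6 to 7 and 8 to 9 in those repeats.

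The difference in median length was -200 bp on day 0, and 0 with 5 Mb or 20 Mb windows and as a median over chromosomes. On day 3 it was 0, and 200 bp without the first megabase. Leaving out chromosomes gave -200 to 0 and 0 to 200 bp. The difference in median density on day 0 was -0.062 reads per kb, 0.28 with the density limit and 0.057 as a median over chromosomes (-0.13 to -0.0015 without single chromosomes). On day 3 it was 0, -0.32 with equal list lengths, and -0.079 to 0.16 without single chromosomes.

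The share of day 0 members that overlap a day 3 island was 34.8%, and 20.6% with equal list lengths, 19.4% with the density limit and 22.7% when 50% overlap was asked for (34.0% to 36.0% without single chromosomes). In the other direction it was 14.02%, and 18.5%, 7.67% and 10.03% (13.5% to 14.3%). The day 3 to day 0 ratio was 2.18 in the windows, 1.99 with 5 Mb windows and 1.28 with equal list lengths (2.12 to 2.25 without single chromosomes). In the rest it was 1.96, and 1.17 with equal list lengths (1.93 to 1.99). Genes with an island numbered 328 and 446. They were 163 and 215 in 5 Mb windows and 661 and 904 in 20 Mb windows, which hold fewer and more genes, 298 on day 3 with equal list lengths (below day 0), and 207 and 325 with the density limit (289 to 322 and 398 to 438 without single chromosomes).

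The difference in covered kb (day 3 less day 0) turned sign with equal list lengths in Cdk14 (-9.8), Calcr (-10.6), Asb4 (-2.02), Cobl (-20), Ncoa1 (-15.4) and Zeb1 (-5). With the density limit it turned in Cdk14 (-7.8), Pon3 (2.6), Zfp329 (1.62), Ikzf1 (-4), Cobl (-4.6), Ncoa1 (-6.6), Crebbp (-3.4), Tiam2 (3.4), Crem (-1) and Zeb1 (-2.4). The cause was not tested. Leaving out the last 10 Mb of the rest left the 9 results computed for it on the same side and within their limits of change. Leaving out islands above 2 times the median density did the same for its 14 results. That removed only 1 member on day 0 and 3 on day 3, so it could hardly move them.

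No paired analysis was possible because each day had 1 ChIP library. Intervals cover counting error only. The Wilson intervals treat islands or promoters of 1 library as independent of each other. The Poisson intervals do the same for reads, which were not tied to single molecules. The exact depth of each library is not known here, no input was set beside the counts, and a gene without an island is one where none passed the authors' threshold. Sequence where reads cannot be placed was not removed from any share.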
